A study of Mus musculus with 6 samples.

Results

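The Ly6 surface protein genes were examined in mouse leukemia cells 24 h after inhibition of the p53-MDM2 interaction. The 6 members, Ly6a, Ly6c1, Ly6c2, Ly6e, Ly6g and Ly6i, were taken by name from 26082 gene names in the expression table, and lines that shared a symbol were summed. All 6 had an entry. The samples were sorted leukemia cells from the bone marrow of C57BL/6J mice with MLL-AF9 leukemia, 3 given vehicle (methyl cellulose) and 3 given DS-5272, an inhibitor of that interaction, at 80 mg/kg, both by mouth. Every mouse carried the same kind of disease: c-Kit+ bone marrow progenitors had been transduced with a retrovirus for the MLL-AF9 fusion oncogene and GFP, grown out in sublethally irradiated mice, passaged serially, and injected into recipients that were not irradiated. The oncogene is thus driven by a virus and not by the Mll locus, and the recipients kept their own marrow cells. Gene expression was measured by RNA-Seq and deposited as FPKM, a measure of fragments that is corrected for transcript length and for library size. Where 3 values of a group are given, they stand in the order of replicates 1, 2 and 3.

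Ly6 proteins are small, cysteine-rich proteins that most often sit on the outer face of the cell membrane by a glycosylphosphatidylinositol (GPI) anchor. Several are classical antibody targets of mouse hematology. Ly6a is Sca-1, used to gate hematopoietic stem cells and induced by interferons in many cell types. Ly6c1 and Ly6c2 both encode Ly6C, which marks inflammatory monocytes, and Ly6g is the antigen of mature neutrophils. The Gr-1 antibody binds Ly6G and, in part, Ly6C. Ly6e is an interferon-inducible member expressed in many tissues that acts in virus entry and in placental cell fusion, and Ly6i is a less studied member close to Ly6a.

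The genes lie side by side on mouse chromosome 15 in GRCm38 (GENCODE M21 annotation), within 204.1 kb. From one end to the other they are Ly6e (74955051 to 74959905, plus strand), Ly6i (74979534 to 74983430, minus), Ly6a (74994877 to 74998031, minus), Ly6c1 (75044018 to 75048830, minus), Ly6c2 (75108158 to 75111970, minus) and Ly6g (75155240 to 75159126, plus). No exon of another gene overlapped theirs. Their coding sequences are alike enough that the assignment of fragments matters, so the starts of the coding sequences are shown for the closest members. Ly6c1 and Ly6c2 were 97.7% identical over 393 coding bases and differed at 9 of them, 6 of which lie in the first 120 bases. These are the stretches, 5′ to 3′ in the coding direction, with the differing bases in capitals:
Ly6c1: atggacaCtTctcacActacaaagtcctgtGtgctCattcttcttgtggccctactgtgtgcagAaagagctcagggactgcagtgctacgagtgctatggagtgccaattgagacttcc
Ly6c2: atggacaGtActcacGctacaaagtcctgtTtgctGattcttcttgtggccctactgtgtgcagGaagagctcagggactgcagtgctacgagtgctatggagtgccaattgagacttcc
Ly6a, Ly6g and Ly6i have coding sequences of 402 bases each. Ly6i was 86.3% and Ly6g 83.1% identical to Ly6a. Their first 120 coding bases follow, with the bases that differ from Ly6a in capitals, 18 in Ly6g and 6 in Ly6i:
Ly6a: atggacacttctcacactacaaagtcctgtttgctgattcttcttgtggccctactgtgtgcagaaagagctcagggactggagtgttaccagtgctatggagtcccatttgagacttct
Ly6g: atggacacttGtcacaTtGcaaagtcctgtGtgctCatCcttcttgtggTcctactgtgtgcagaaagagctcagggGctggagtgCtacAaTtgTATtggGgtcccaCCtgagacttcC
Ly6i: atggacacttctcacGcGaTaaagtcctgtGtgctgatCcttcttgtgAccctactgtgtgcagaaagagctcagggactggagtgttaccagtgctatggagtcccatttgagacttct
Ly6e, with 408 coding bases, was only 49.5% to 52.7% identical to the other members. The reads were 100 nt long. Of the 767 different windows of 100 bases in the Ly6c2 transcripts, 114 (14.9%) also occur in Ly6c1 transcripts, and they make up 6.49% of those of Ly6c1. Ly6a and Ly6c1 share 19 windows, and no other pair of members shares any, so fragments of Ly6c1 and Ly6c2 are the hardest to assign.

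In DS-5272-treated MLL-AF9 cells Ly6a and Ly6e were upregulated, and no member was downregulated past the threshold. The call of Ly6a held in each of 17 alternative analyses, while that of Ly6e was lost in 6 of 17. Without the filter on low FPKM, the adjusted p of Ly6e from limma was 0.052. Ly6g passed the threshold as well, but it entered the test only because it was high in the DS-5272 mice, and without the filter on low FPKM its adjusted p from limma was 0.057. Tests used limma on log2(FPKM + 1), two-sided, with Benjamini-Hochberg adjustment over the 11130 genes that averaged 1 FPKM or more and a threshold of 0.05. Fold changes refer to log2(FPKM + 1), on which genes of low FPKM change by less than their ratio. Of the 6 members 5 passed this filter, Ly6g only through the DS-5272 group, and 3 were called higher with Ly6g and 2 without it, where 24.2% of all tested genes were called higher and 22.0% lower. With the replicate number as a block, Ly6a, Ly6e and Ly6g were called higher and no member lower, against 30.3% and 24.9% of tested genes. The DS-5272 values lay above all vehicle values for these 3 members and below them for none, patterns found for 32.1% and 29.7% of tested genes. The median log2 fold change over all tested genes was 0.04. In sorted cells, a change in how many cells carry a transcript and a change in its amount per cell cannot be told apart. Neither the labels nor the methods say more of the replicates than that they came from separate mice. After rescaling to a common total, higher calls made up 32.4% of all calls in place of 52.4%, and 2 members, Ly6a and Ly6g, were called higher.

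**Figure D1:**
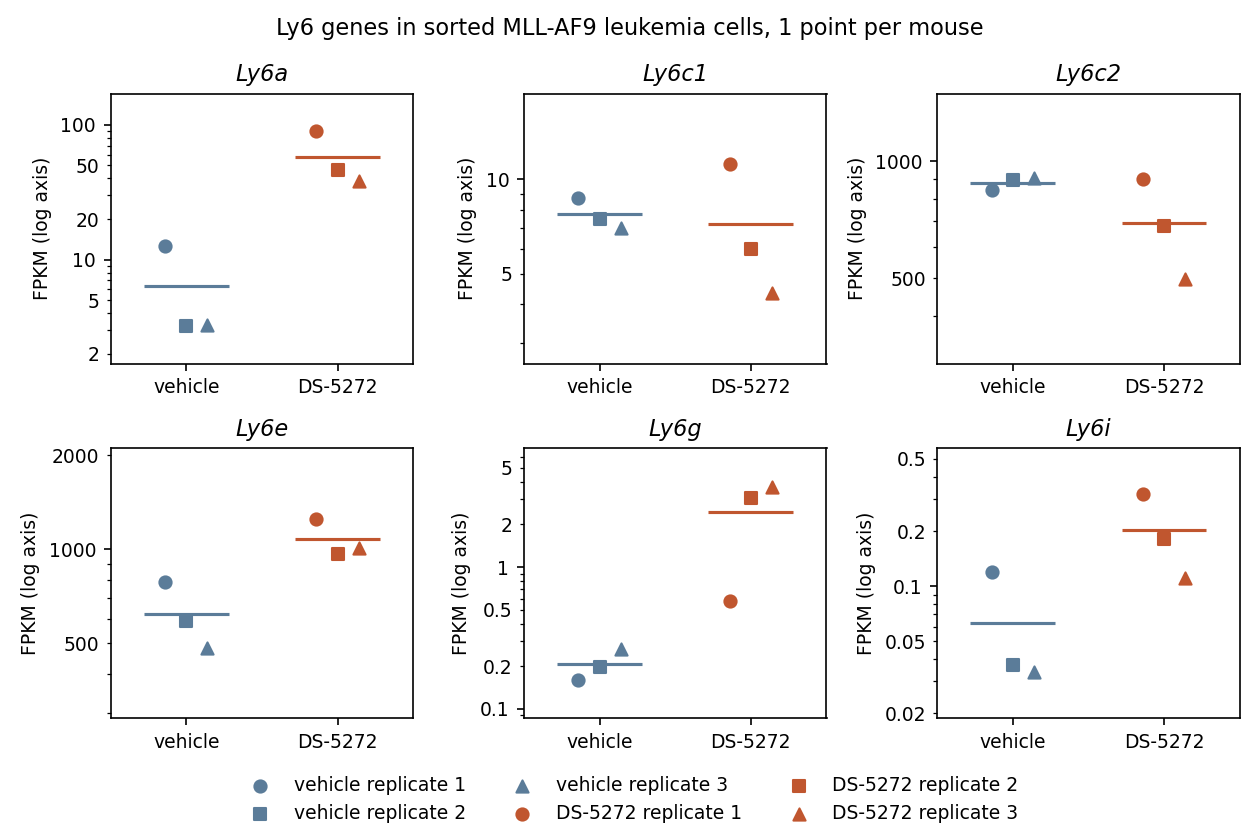
FPKM of the 6 Ly6 genes in each mouse on log axes, 1 panel per gene, with vehicle mice in blue and DS-5272 mice in orange, a marker shape per replicate number and a line at each group's mean. All 3 DS-5272 points lie above all vehicle points for Ly6a, Ly6e and Ly6g, while the groups overlap for Ly6c1, Ly6c2 and Ly6i.

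Ly6a (Sca-1) had the largest log2 fold change of the tested members on the log2(FPKM + 1) scale, while the ratio of the mean FPKM was 9.12 for Ly6a and 11.7 for Ly6g. It stood at 12.7, 3.20 and 3.25 FPKM in the vehicle mice and at 90.4, 45.9 and 38.3 FPKM in the DS-5272 mice. Replicate 1 was the highest of each group, and the lowest DS-5272 mouse was still above the highest vehicle mouse. The means were 6.38 ± 5.47 and 58.2 ± 28.1 FPKM (SD, n = 3 mice each), a log2 fold change of 3.14 ± 0.53 (SE, limma, adjusted p = 0.0055). Within the mice of the same number the ratio of FPKM was 7.12, 14.4 and 11.8. Only 0.476% of the tested genes had a larger log2 fold change. Ly6a moved from rank 5797, 9300 and 9235 of 11130 genes by FPKM in the vehicle mice to rank 967, 2284 and 2853 in the DS-5272 mice. The call held in each of the alternatives run, with log2 fold changes of 2.78 to 3.71 and adjusted p from limma of 0.00035 to 0.027.

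Ly6e was among the most abundant transcripts of these cells before treatment and rose further. Its values were 784, 591 and 483 FPKM in the vehicle mice and 1254, 965 and 1012 FPKM in the DS-5272 mice. The groups did not overlap, and replicate 1 was again the highest of each group. The means were 619 ± 153 and 1077 ± 155 FPKM (SD, n = 3 mice each), a log2 fold change of 0.82 ± 0.21 (SE, limma, adjusted p = 0.019). The call was lost without vehicle replicate 2 or 3 (limma adjusted p = 0.071 and 0.068), without the filter on low FPKM (adjusted p = 0.052), after rescaling to a common total (log2 fold change 0.55, adjusted p = 0.13) and after quantile normalization (0.47, adjusted p = 0.22).

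Ly6g, the neutrophil antigen, was very low in the vehicle mice. It was at 0.160, 0.198 and 0.264 FPKM in the vehicle mice and at 0.580, 3.06 and 3.66 FPKM in the DS-5272 mice. DS-5272 replicate 1 stood much closer to the vehicle mice than replicates 2 and 3 did. The means were 0.207 ± 0.052 and 2.44 ± 1.63 FPKM (SD, n = 3 mice each), a log2 fold change of 1.36 ± 0.40 (SE, limma, adjusted p = 0.030), or 2.72 with a pseudocount of 0.1. Ly6g passed the filter only through the DS-5272 group, so its being tested was tied to its being high there. The call was lost without vehicle replicate 1, 2 or 3 (limma adjusted p = 0.078, 0.083 and 0.072) and without the filter (adjusted p = 0.057), and without DS-5272 replicate 2 or 3 its mean fell under the filter (log2 differences of 1.17 and 1.07).

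Other neutrophil genes moved with Ly6g, and their part in its change was not tested. The 9 mature neutrophil genes, Ltf, Camp, Ngp, Mmp8, Mmp9, Retnlg, Cxcr2, S100a8 and S100a9, summed to 156, 1106 and 1660 FPKM in the vehicle mice and to 3194, 9501 and 15383 FPKM in the DS-5272 mice. Of the 9 genes 7 rose, where 24.2% of all tested genes were called higher. All 9 were called higher with the replicate block, where 30.3% of tested genes were. The block added Camp (adjusted p = 0.35 without and 0.020 with the block, from limma) and Ngp (0.18 and 0.0024). Their sum put the 6 samples in the same order as Ly6g.

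**Figure D2:**
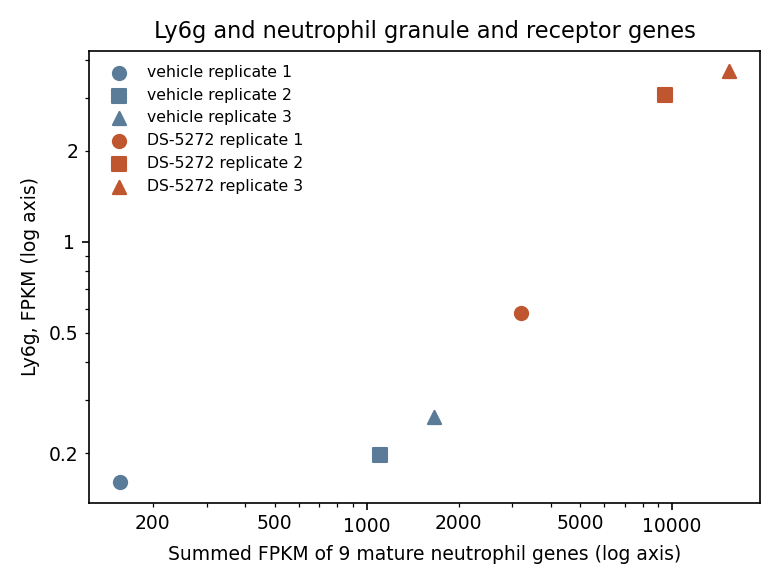
Ly6g in FPKM against the summed FPKM of 9 mature neutrophil genes, both on log axes, with vehicle mice in blue, DS-5272 mice in orange and a marker shape per replicate number. Both quantities are lowest in vehicle replicate 1 and highest in DS-5272 replicate 3, and the 6 samples stand in the same order on both axes. S100a8 and S100a9 are the largest parts of the sum in each sample.

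Ly6c2, the main Ly6C transcript here, was of the same order of abundance as Ly6e and did not pass the test. It stood at 842, 892 and 906 FPKM in the vehicle mice and at 898, 683 and 497 FPKM in the DS-5272 mice. The vehicle mice were close together, and DS-5272 replicate 1 lay inside their range while replicates 2 and 3 lay below it. The means were 880 ± 33.6 and 693 ± 201 FPKM (SD, n = 3 mice each), a log2 fold change of −0.39 ± 0.22 (SE, limma, adjusted p = 0.19). With DS-5272 replicate 1 left out, it was −0.59 (limma adjusted p = 0.031).

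Ly6c1 was far lower than its near copy. The summed values were 8.72, 7.47 and 7.0 FPKM in the vehicle mice and 11.2, 5.99 and 4.32 FPKM in the DS-5272 mice. The DS-5272 mice lay on both sides of the vehicle mice, and the log2 fold change was −0.18 (standard error 0.29, limma adjusted p = 0.64). The table holds 2 entries named Ly6c1, and, seen apart, these differed in direction. The first entry was at 5.33, 4.25 and 4.10 FPKM in the vehicle mice and at 8.80, 5.07 and 3.56 FPKM in the DS-5272 mice, with overlapping groups (log2 fold change 0.23, limma adjusted p = 0.52). The second was at 3.38, 3.22 and 2.91 FPKM and at 2.43, 0.916 and 0.762 FPKM, with every DS-5272 mouse below every vehicle mouse (log2 fold change −0.88 ± 0.26 SE, limma adjusted p = 0.031). The separate look at the entries was chosen after the data were seen. The table does not say which transcripts each entry stands for, and the part of fragments shared with Ly6c2 in their values was not tested. With DS-5272 replicate 1 left out, the summed Ly6c1 had a log2 fold change of −0.51 (limma adjusted p = 0.047), and without DS-5272 replicate 3 it had one of 0.087 (limma adjusted p = 0.80).

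**Figure D3:**
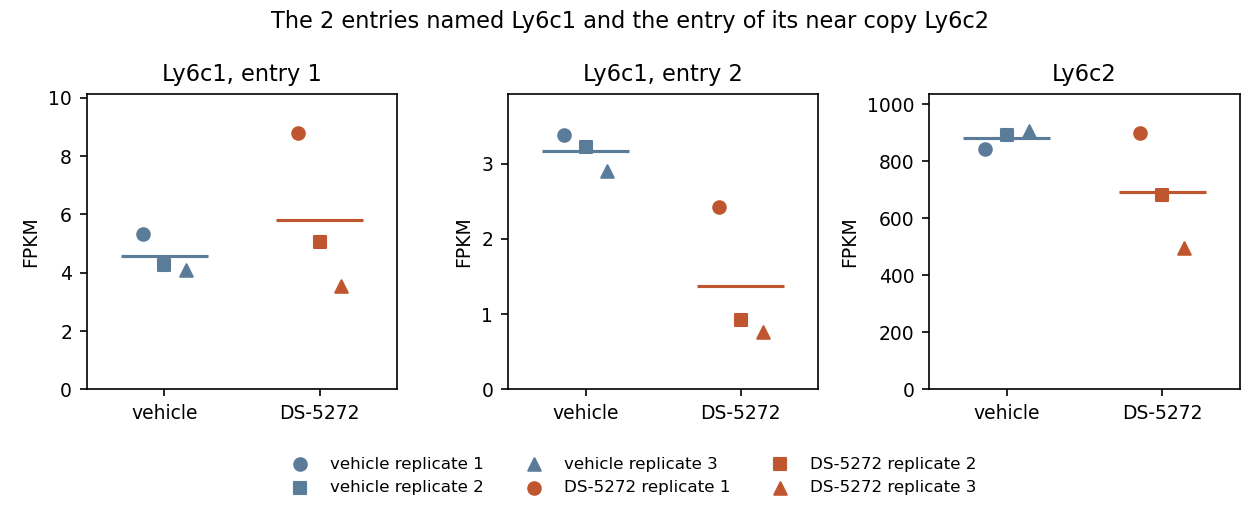
FPKM of both entries named Ly6c1 and of Ly6c2 in each mouse, on axes that start at 0, with vehicle mice in blue, DS-5272 mice in orange, a marker shape per replicate number and a line at each group's mean. In the second Ly6c1 entry all 3 DS-5272 points lie below the vehicle points, and in each panel DS-5272 replicate 1 is the highest of its group.

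Ly6i was barely detected. Its values were 0.119, 0.0368 and 0.0336 FPKM in the vehicle mice and 0.319, 0.183 and 0.110 FPKM in the DS-5272 mice. If the value in vehicle replicate 2 is taken as 1 fragment and scaled by relative depth, the values come to 4, 1 and 1 fragments in the vehicle mice and 8, 4 and 2 in the DS-5272 mice, each within 0.012 of a whole number. The groups overlap, the mean over all samples was under the filter, and the difference of 0.18 on the log2(FPKM + 1) scale was not tested with the filter. Relative to vehicle replicate 1, the depth read from the steps between low FPKM values was 0.808 and 0.885 in the other vehicle libraries and 0.746, 0.652 and 0.539 in the DS-5272 mice.

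**Figure D4:**
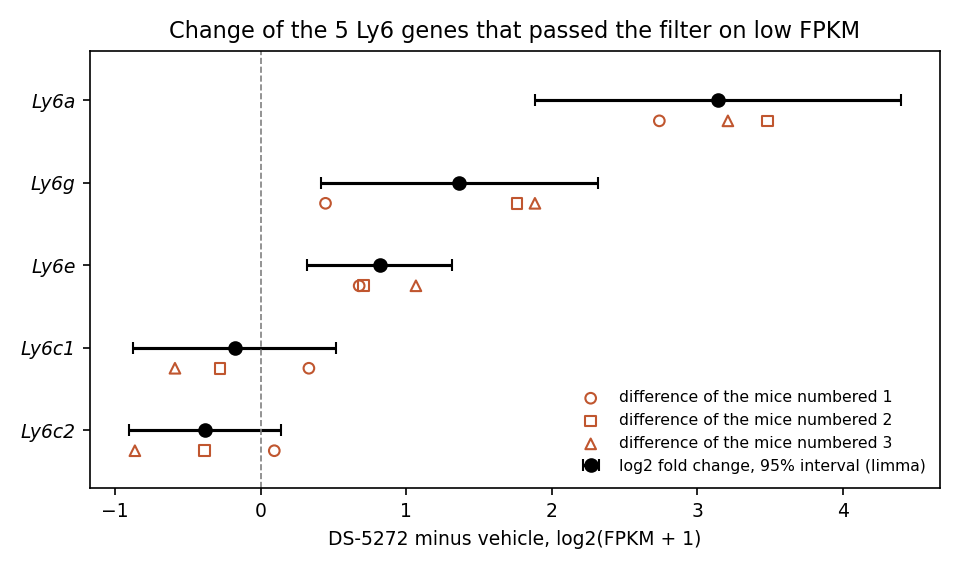
Difference of DS-5272 minus vehicle on the log2(FPKM + 1) scale for the 5 Ly6 genes that passed the filter, with limma's estimate and 95% interval in black and the differences between mice of the same replicate number as open markers. The intervals of Ly6a, Ly6g and Ly6e lie above 0, and those of Ly6c1 and Ly6c2 include it.

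FPKM is scaled to transcript length, so the members can also be set against each other within a sample. In vehicle mice Ly6c2 was above Ly6e in each mouse, and in DS-5272 mice Ly6e was above Ly6c2 in each mouse. Of the summed FPKM of the 6 genes, Ly6c2 made up 51.1%, 59.7% and 64.7% in the vehicle mice and 39.8%, 40.1% and 32.0% in the DS-5272 mice. Ly6e made up 47.6%, 39.6% and 34.5% in the vehicle and 55.6%, 56.7% and 65.1% in the DS-5272 mice. Ly6a went from 0.771%, 0.214% and 0.232% to 4.01%, 2.70% and 2.46%. For each of these genes the shares of the groups did not overlap. The sum itself did overlap, with 1648, 1494 and 1399 FPKM in the vehicle mice and 2255, 1703 and 1555 FPKM in the DS-5272 mice. Below Ly6c2 and Ly6e, the vehicle levels of Ly6c1 and Ly6a overlapped, and Ly6g and Ly6i followed without overlap. In the DS-5272 mice the order was Ly6e, Ly6c2, Ly6a, Ly6c1, Ly6g and Ly6i, with no overlap between neighbours.

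**Figure D5:**
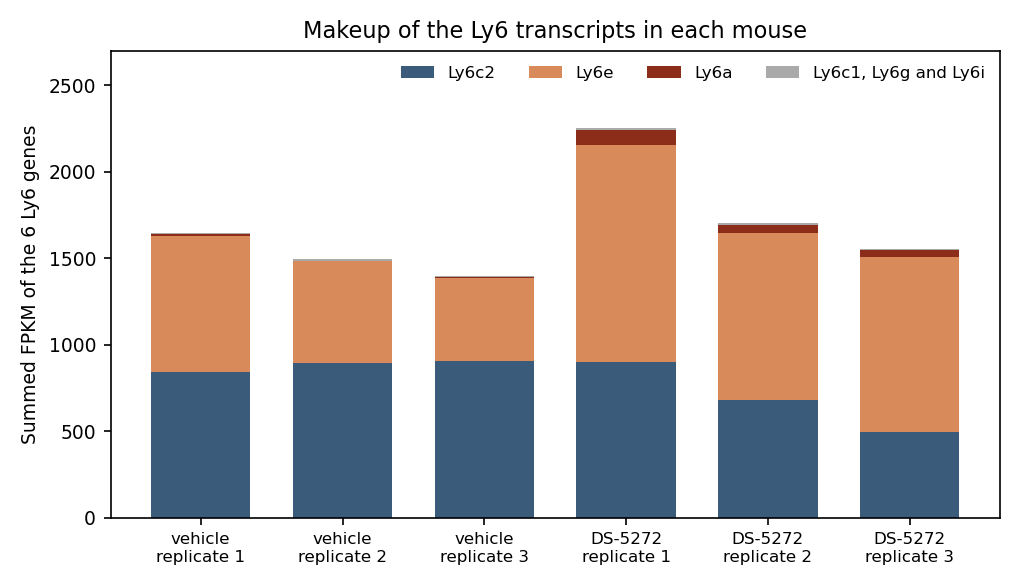
Summed FPKM of the 6 Ly6 genes in each mouse as stacked bars that start at 0, with Ly6c2 in blue, Ly6e in light orange, Ly6a in dark red and the remaining 3 genes in grey. Ly6c2 is the larger part in the 3 vehicle mice and Ly6e in the 3 DS-5272 mice.

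The log2 ratio of FPKM + 1 was compared between the groups for all 15 pairs of members with a two-sided exact permutation test. With 3 mice against 3 the smallest p this test allows is 0.1, and 9 of the 15 pairs reached it, so that no pair could pass a threshold of 0.05. The smallest value adjusted over the 15 pairs was 0.167. The pairs reuse the same 6 members, so they are not independent of each other. Among single tested genes the groups did not overlap for 32.1% (higher) and 29.7% (lower), and no such share was computed for pairs of other genes. On the log2 scale, DS-5272 minus vehicle, the ratio of Ly6c2 to Ly6e differed by −1.20 and that of Ly6a to Ly6c2 by 3.53, both without overlap of the groups. The ratio of Ly6a to Ly6e differed by 2.33, again without overlap. The ratio of Ly6c1 to Ly6c2 differed by 0.21 with overlapping groups (exact permutation p = 0.4).

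Over the 6 samples, levels of some members followed each other as a description of these libraries, which share the treatment contrast. Pearson's r of log2(FPKM + 1) was 0.98 for Ly6a and Ly6e, 0.84 for Ly6c1 and Ly6c2, −0.91 for Ly6c2 and Ly6g and −0.44 for Ly6a and Ly6c2. Among all tested genes, the 3 most like Ly6a were Shisa2 (r = 0.996), a joined entry of I830012O16Rik and Ifit3 (0.996) and Oasl1 (0.995), both of the latter being interferon-stimulated antiviral genes. Those most like Ly6e were Mef2d, the interferon receptor chain Ifnar1 and the necroptosis effector Mlkl, with r from 0.993 to 0.999. For Ly6g they were Ost4, Ptpro and Cdc42se2, for Ly6c2 Snx25, a joined entry of Lap3 and Med28, and Rassf7, and for Ly6c1 Tnfrsf22, Cox7a1 and Lman1, all with r of at least 0.981.

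The sequence upstream of the start site was available for Ly6c1, Ly6c2 and Ly6g, 3 of the 6 members, in RefSeq's GRCm38.p6 annotation. These neighbours are shown for their sequence alone, and its part in their changes was not tested. Ly6g was called higher in the main fit but not without the filter on low FPKM (limma adjusted p = 0.057). Neither Ly6C gene was called. In local alignments of the 250 bases before each start, Ly6c1 and Ly6g were 75.1% identical over 229 aligned columns, Ly6c1 and Ly6c2 72.2% over 227, and Ly6c2 and Ly6g 65.5% over 206. Each line gives 250 bases, 5′ to 3′ on the gene's strand, at chr15:75048838-75049087 (minus), chr15:75111972-75112221 (minus) and chr15:75155011-75155260 (plus) in that order. Capitals mark matches to the motifs searched.
Ly6c1: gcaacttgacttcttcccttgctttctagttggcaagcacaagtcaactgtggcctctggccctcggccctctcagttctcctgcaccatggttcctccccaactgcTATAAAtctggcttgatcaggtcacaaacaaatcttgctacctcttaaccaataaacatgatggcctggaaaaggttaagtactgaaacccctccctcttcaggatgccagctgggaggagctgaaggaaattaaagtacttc
Ly6c2: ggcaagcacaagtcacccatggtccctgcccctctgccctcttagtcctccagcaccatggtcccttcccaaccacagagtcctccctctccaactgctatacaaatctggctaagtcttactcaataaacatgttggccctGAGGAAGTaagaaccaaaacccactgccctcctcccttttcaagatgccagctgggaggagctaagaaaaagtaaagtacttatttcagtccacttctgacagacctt
Ly6g: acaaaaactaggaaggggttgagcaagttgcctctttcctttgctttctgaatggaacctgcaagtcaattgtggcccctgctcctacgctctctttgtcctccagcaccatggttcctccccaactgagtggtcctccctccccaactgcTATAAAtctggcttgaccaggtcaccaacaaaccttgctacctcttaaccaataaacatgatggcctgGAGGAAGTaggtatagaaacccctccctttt
The motifs were searched on both strands. Those reported are the core GAAANNGAA of the interferon-stimulated response element, the PU.1 letters GAGGAAGT and TATAAA. The PU.1 letters stood 108 bases before the RefSeq start of Ly6c2 and 31 bases before that of Ly6g, and 2.44% of 27018 promoter windows of this length hold them. TATAAA stood 143 bases before the RefSeq start of Ly6c1 and 99 bases before that of Ly6g, and 13% of the windows hold it. The Ly6g window ends at 75155260, past the GENCODE start at 75155240. Measured from the GENCODE start, the Ly6g motifs are nearer. The response element core had no match in the 3 windows, and 7.16% of all windows hold it.

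One other gene with an entry lies between the outermost members, I830127L07Rik, which was grouped with the wider Ly6 family. It was at 2.93, 5.64 and 7.12 FPKM in the vehicle mice and at 8.07, 10.2 and 13 FPKM in the DS-5272 mice. It lies between Ly6c2 and Ly6g and was called higher (log2 fold change 0.91 ± 0.29 SE, limma adjusted p = 0.040). The 5 nearest genes with an entry on each side of the cluster were too low to be tested, among them the family members Ly6f and Ly6h, listed at 0 in every sample.

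The wider family of Ly6 and urokinase receptor genes counted 40 further genes with an entry. Of these, 18 were listed at 0 in every sample and 6 were tested. Among the tested genes 4 rose and none fell, where 24.2% and 22.0% of all tested genes did. Their median log2 fold change was 1.16, against 0.011 over this list's entries detected in any sample, without the filter. Cd177, a neutrophil surface antigen, went from 48.7, 123 and 133 FPKM in the vehicle mice to 238, 316 and 492 FPKM in the DS-5272 mice (log2 fold change 1.83, limma adjusted p = 0.015). Plaur, the urokinase receptor, went from 36, 73.8 and 81.5 to 124, 212 and 269 FPKM (1.66, limma adjusted p = 0.014). Ly6g5b, a family member of the major histocompatibility region, went from 0.861, 1.06 and 1.19 to 2.31, 4.48 and 7.47 FPKM (1.40, limma adjusted p = 0.014). These 3 genes and I830127L07Rik were lowest in vehicle replicate 1, while Ly6a and Ly6e were highest there among the vehicle mice. Ly6k was at 30.8, 22.3 and 20.9 FPKM in the vehicle and at 29.4, 10.6 and 10.4 FPKM in the DS-5272 mice (−0.67, limma adjusted p = 0.19), and it passed the threshold with the replicate number as a block in the fit (adjusted p = 0.035).

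The enzymes that build and attach the GPI anchor, on which most Ly6 proteins depend, had few calls in either direction. Of 26 tested genes 4 rose and 3 fell, where 24.2% and 22.0% of all tested genes did, with a median log2 fold change of −0.08. After rescaling to a common total 0 were higher and 5 lower, with a median of −0.28. With the replicate block Piga, which acts in an early step of anchor synthesis, was called lower too (adjusted p = 0.065 without and 0.043 with the block, from limma). The 3 largest rises were those of Pigx (0.51), of the lipid remodeling factor Pgap2 (0.50) and of Pigf (0.45), with adjusted p from limma of 0.010, 0.012 and 0.028. The genes that fell were Pigo, an ethanolamine phosphate transferase (−0.53), Dpm3, a subunit of dolichol phosphate mannose synthase (−0.34), and Pigt, a subunit of the transamidase that attaches the anchor (−0.33), with adjusted p from limma of 0.0090, 0.030 and 0.027. On a list of further GPI-anchored leukocyte proteins, 11 of 12 tested genes were called higher and 1 lower. The median log2 fold change was 1.55, against 0.39 over that list's entries detected in any sample, without the filter. Plaur and Cd177 count among the 11 and also among the 4 genes that rose in the wider family, so the lists overlap. Of the 11, Nt5e and Vnn3 passed the filter only through the DS-5272 group. The 3 with the largest rise were Bst1 (3.64), the lipopolysaccharide co-receptor Cd14 (2.63) and Cd52 (2.38). The 1 lower gene was the NKG2D ligand Ulbp1 (−0.91, limma adjusted p = 0.013). Its mouse protein spans the membrane and has no GPI anchor. It thus does not belong to this class, though it is counted in the 12 and in the median.

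Antigens that are measured together with Ly6 proteins in flow cytometry of progenitors and myeloid cells were upregulated for 12 of 17 tested genes and downregulated for 2. Over all tested genes 24.2% were called higher and 22.0% lower. Of the 12, Itgax and Treml4 passed the filter only through the DS-5272 group, and Fcgr2b was called higher as well with the replicate block (adjusted p = 0.057 without and 0.042 with the block, from limma). The largest rises were in the neutrophil chemokine receptor Cxcr2 (log2 fold change 3.0), the integrin chains Itgax (2.13) and Itgam (2.1), and the falls in the progenitor receptors Flt3 (−3.81) and Kit (−1.96). Kit, which defines stem and progenitor gates together with Sca-1, was at 45.0, 32.3 and 30.5 FPKM in the vehicle mice and at 12.1, 9.70 and 4.94 FPKM in the DS-5272 mice (limma adjusted p = 0.0046). Its direction was thus opposite to that of Ly6a in these cells. Of 14 interferon receptor and signaling genes 13 rose and none fell, with a median log2 fold change of 0.81. The feedback inhibitor Socs3 (2.21), the signal transducer Stat2 (1.39) and the transcription factor Irf1 (1.29) rose most, with adjusted p from limma of 0.0024, 0.0049 and 0.010. Ifngr1 was the exception (0.34, limma adjusted p = 0.088), and it passed with the replicate block (adjusted p = 0.042). After rescaling to a common total, 9 of these 14 genes were called higher and none lower, with a median of 0.54.

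The labelled cell type was checked against its markers. Ptprc, Itgam, Meis1, Pbx3, Csf1r and Cd34 were at 25.7 FPKM or more in each sample, and Hoxa9 had no entry of its own. Flt3 and Mpo were high in the vehicle mice and low after DS-5272, at 1.23 to 2.75 and at 3.25 to 12.2 FPKM. Kit fell as well, from 45.0, 32.3 and 30.5 FPKM to 12.1, 9.70 and 4.94 FPKM. Of the 9 tested markers 3 rose and 3 fell, where 24.2% and 22.0% of all tested genes did. Markers of other cells than neutrophils moved with the treatment as well, and their part in the changes of the Ly6 genes was not tested.

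The marker list of bone marrow macrophages was highest in DS-5272 replicate 1, where Ly6a, Ly6e and Ly6c1 were highest too. Its 10 genes summed to 76.0, 104 and 135 FPKM in the vehicle mice and to 455, 201 and 260 FPKM in the DS-5272 mice. Of 9 tested genes 4 rose, where 24.2% of all tested genes did. Cd5l was called in addition under the replicate block (adjusted p = 0.12 without and 0.039 with the block, from limma). C1qb was at 58.2, 14.1 and 15.6 FPKM in the DS-5272 mice. In the vehicle mice the list's sum was lowest in replicate 1, where Ly6a was highest. Vcam1 was the largest part of that sum, at 36.6, 64.1 and 82.8 FPKM. Slc40a1, Adgre1 and Mertk were also lowest in vehicle replicate 1. C1qa, C1qb, C1qc, Cd5l, Timd4 and Cd163 were instead lowest in vehicle replicate 2, with C1qb at 1.97, 1.53 and 2.95 FPKM. Erythroid markers summed to at most 3.79 FPKM in the vehicle mice and to 90.9, 16.8 and 8.21 FPKM in the DS-5272 mice, mostly Hba-a1. Of the endothelial and stromal list, Pecam1 was at 58.8, 28.7 and 26.4 FPKM in the vehicle mice and at 109, 68.3 and 74.5 FPKM in the DS-5272 mice. The defining endothelial markers Cdh5, Kdr, Tek and Emcn were at 0.0913 FPKM or less in each sample. The 6 monocyte markers summed to 450 to 573 FPKM in the vehicle and to 702 to 874 FPKM in the DS-5272 mice. Of 5 tested genes 3 rose, against the same 24.2% of all tested genes. F13a1, the largest of these markers in the vehicle mice, did not rise. It was at 341, 308 and 296 FPKM there and at 240, 235 and 310 FPKM in the DS-5272 mice (−0.27, limma adjusted p = 0.15). After rescaling to a common total, 3 monocyte markers were called higher and 1 lower. The replicate block added Klf4 (adjusted p = 0.48 without and 0.0025 with the block, from limma), Col1a1 of the stromal list (0.084 and 0.0040) and Itga2b of the megakaryocyte list (0.059 and 0.025). Itga2b passed the filter only through the DS-5272 group, so its being tested was tied to its being high there. Megakaryocyte, T-cell and NK-cell lists summed to at most 8.20, 6.4 and 3.18 FPKM in any sample, and each was higher in the 3 DS-5272 mice than in the vehicle mice. The T-cell list was highest in DS-5272 replicate 1, where Cd4 was at 3.28, Lat at 2.76 and Cd3e at 0.0452 FPKM. The B-cell list summed to at most 7.55 FPKM and the plasmacytoid dendritic cell list to at most 44.7 FPKM, and for both the groups overlapped. The latter sum was almost all Tcf4, at 44.5 FPKM in DS-5272 replicate 1, where the defining marker Siglech was at 0.0129 FPKM.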

How the data were processed

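Leukemia cells were sorted from bone marrow, and RNA was isolated and made into strand-specific libraries that were read from both ends on a HiSeq instrument. The authors trimmed the reads with cutadapt 1.8.1, mapped them with TopHat 2.1.1 to reference transcripts of GRCm38 and computed the deposited FPKM values with Cufflinks 2.2.1 (versions from the submitters' processing notes). FPKM divides out transcript length and library size, so read counts and total depth are unknown and no count model was used. Whether counting used strand is not given in the sources used here.

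Members and gene lists were chosen with earlier results of these data known. Of the 26632 lines, those sharing a symbol were summed. limma 3.58.1 in R 4.3.3 (eBayes, trend allowed) was run on log2(FPKM + 1), and the script was tested on simulated data. Ratios were tested by exact permutation in scipy 1.17.1, and alignments used Biopython 1.88. Named were all members, the 3 largest called changes each way in each list, the 3 genes most like each tested member, and genes between the members. Of 218 list names, 197 matched an entry by their own symbol and 11 by an older one, while 4 in joined entries, 5 without an entry and 1 that repeated another were left out.

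Replicate numbers run from 1 to 3 in both groups. Deviations from the group means correlated by 0.66, 0.21 and 0.43 between samples of the same number and by −0.58 to 0.34 otherwise. Vehicle replicate 2 correlated more with DS-5272 replicate 3 (0.34) than with DS-5272 replicate 2 (0.21). No source states a pairing, so the block by number is an assumption drawn from these same data. Calls that only the block adds rest on it. The fit is reported without the block unless it changed a call. Alternatives were other pseudocounts, filters, scalings (upper quartile, median ratio, total, quantile), the block, eBayes without the trend, a fold minimum, the highest entry per symbol, and each mouse left out in turn. One motif that was searched is not reported here.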

Additional observations from a re-analysis of the deposited data

How the results depend on the processing

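Ly6a kept its call under each of the 17 alternatives. Without the filter on low FPKM the log2 fold changes of Ly6e (0.82) and Ly6g (1.36) no longer passed, which left 1 member called higher. Rescaling to a common total moved the median of all genes from 0.04 to −0.20, took the log2 fold change of Ly6e to 0.55 and left 1709 genes higher and 3565 lower, so that 32.4% of called genes were higher in place of 52.4%. Quantile normalization gave 0.47 for Ly6e and 43.5% of called genes higher. A log2 fold change of at least 1 left 978 genes higher and 621 lower and removed Ly6e (0.82). The highest entry per symbol, which is the first Ly6c1 entry alone, turned Ly6c1 to 0.23, and the second entry alone gave −0.88. Ly6g had no value at a mean of at least 5 FPKM, and Ly6i was tested only without the filter (adjusted p = 0.11 from limma).

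With 1 mouse left out at a time, the genes called higher ranged from 1654 (without vehicle replicate 2) to 2920 and those called lower from 1404 (without vehicle replicate 2) to 2446, with 1489 lower without vehicle replicate 3. The members called higher ranged from 1 (without vehicle replicate 2 or 3) to 3 and those called lower from 0 to 2 (without DS-5272 replicate 1). Log2 fold changes ranged from 2.78 to 3.71 for Ly6a, from 0.65 to 1.0 for Ly6e, from 1.07 to 1.85 for Ly6g, from −0.59 to −0.17 for Ly6c2 and from −0.51 to 0.087 for Ly6c1, and the difference of Ly6i from 0.11 to 0.23. With the replicate block, which pairs the mice by number, 3367 genes were higher and 2771 lower, the log2 fold changes of the members were the same as without it (3.14 for Ly6a, 0.82 for Ly6e, 1.36 for Ly6g, −0.39 for Ly6c2 and −0.18 for Ly6c1), and no member's call changed. Where a result changed, the cause was not tested beyond the smaller number of mice or genes that the alternative itself sets.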
